A study of Mus musculus with 24 samples.

Results

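Chromatin accessibility of germinal centre (GC) B cells was compared between mice that lost 1 allele of Crebbp in these cells and control mice. The comparison took in 8 of the 24 samples of the series, 4 C and 4 WT, each 1 ATAC-seq library from 1 mouse, and all 65483 peaks of the deposited count table. The mice were grouped by their genotype label. The WT mice carried Cg1Cre+/-, the C mice (labelled C_het_KO) carried Cg1Cre+/- with Crebbp fl/+, the K mice (K_het_KO, n = 4) carried Cg1Cre+/- with Kmt2d fl/+, and the CK mice (CK_het_DKO, n = 5) carried Cg1Cre+/- with both floxed alleles. All 4 genotypes therefore carried the Cre, which is expressed from the locus of the immunoglobulin Cγ1 constant region, so that deletion occurs in B cells once they enter the GC reaction and 1 Crebbp allele is left intact in C. The mice were on a C57BL/6J background, were described as 8 weeks old, and were analysed on day 10 after immunization with sheep red blood cells (SRBC). The other 7 samples, sorted WT centroblasts and centrocytes, were not analysed here.

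CREBBP is a histone acetyltransferase that marks enhancers with acetylated H3K27, and heterozygous CREBBP mutations are common in B-cell lymphomas that arise from the GC. In GC B cells it is known to act at enhancers of genes for antigen presentation and for contact with T cells, where its action is opposed by the repressor BCL6. ATAC-seq measures open chromatin: a transposase cuts accessible DNA and inserts sequencing adapters, and the fragments that fall in a peak are counted.

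Libraries of C and WT mice held between 18293297 and 21857738 counted fragments in peaks, and values are given as CPM, fragments per 1000000 counted, after TMM scaling. Mice of the same genotype correlated at Pearson's r of 0.980 to 0.989 (log2 CPM, computed over peaks and so not over replicates), and a C with a WT mouse at 0.978 to 0.987. The study describes the mice as female, but 2 WT (replicates 1 and 2) and 2 C (replicates 1 and 2) libraries held between 77.0 and 81.9 CPM in the 11 peaks of the first 10 Mb of chromosome Y, while the other 4 held at most 0.0532 CPM, so that Y signal was balanced between the groups. Markers of GC B cells were open: 11 of 12 had a peak over their transcription start site (TSS), with a summed level of 784 to 875 CPM in WT and 735 to 805 CPM in C, the exception being Pax5. Peaks at the TSS were found for 7 of 8 markers of naive and follicular B cells (273 to 282 CPM in WT, 260 to 283 in C) and for 6 of 7 markers of plasma cells (345 to 366 in WT, 337 to 366 in C). For T cells 3 of 10 markers had one (81.7 to 84.5 in WT, 80.1 to 85.4 in C). They were Gata3, Lck and Thy1, at 53.7, 27.6 and 2.04 CPM in WT on average. Cd3e, Cd3d, Cd3g, Cd4 and Cd8a had none. The single myeloid marker of 10 with a TSS peak, Csf1r, was at 1.11 to 1.51 CPM in WT and 1.65 to 2.27 CPM in C, and the single erythroid one of 9, Tal1, was at 5.98 to 8.15 CPM in WT and 7.49 to 8.73 CPM in C.

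The targeted gene was examined first. The 5 peaks over Crebbp (chr16:4081328-4213997, minus strand, GRCm38) summed to 45.4, 47.5, 43.3 and 45.1 CPM in the WT mice and to 46.4, 46.2, 42.2 and 41.3 CPM in the C mice. The groups overlapped, with means of 45.3 ± 1.72 and 44.0 ± 2.69 CPM (SD, n = 4 each) and a log2 ratio of −0.04 (exact two-sided permutation p = 0.486, where the smallest p that 4 against 4 allows is 0.0286). Accessibility at these peaks does not report whether the floxed part was deleted, and it gave no check of the genotype labels. None of the 177 peaks within 5 Mb of Crebbp was called (lowest edgeR adjusted p = 0.388), and the single called peak of chromosome 16 lay 71.7 Mb away in Samsn1, an adaptor of B cell activation. Peaks over Kmt2d, which is intact in both genotypes, summed to 127 ± 3.19 CPM in WT and 124 ± 3.28 CPM in C (SD, n = 4 each).

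The centres of 6 peaks with low p are shown as 300 bases on the plus strand of GRCm38, 3 that were less accessible and 3 that were more accessible in C, since their levels carry the results that follow. Capitals mark matches on either strand to any of 12 short factor motifs that were searched, and a peak with no capitals held none of them in this stretch.
Intron of Mroh2a, 23.6 kb from the Hjurp TSS, lost, chr1:88253056-88253355: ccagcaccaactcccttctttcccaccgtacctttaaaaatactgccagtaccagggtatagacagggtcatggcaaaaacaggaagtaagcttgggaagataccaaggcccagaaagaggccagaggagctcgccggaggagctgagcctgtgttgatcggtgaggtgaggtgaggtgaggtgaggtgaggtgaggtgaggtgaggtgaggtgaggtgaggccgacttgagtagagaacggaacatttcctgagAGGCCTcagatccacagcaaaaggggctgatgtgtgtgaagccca
Intron of D630024D03Rik, 8.46 kb from its TSS, lost, chr11:31815054-31815353: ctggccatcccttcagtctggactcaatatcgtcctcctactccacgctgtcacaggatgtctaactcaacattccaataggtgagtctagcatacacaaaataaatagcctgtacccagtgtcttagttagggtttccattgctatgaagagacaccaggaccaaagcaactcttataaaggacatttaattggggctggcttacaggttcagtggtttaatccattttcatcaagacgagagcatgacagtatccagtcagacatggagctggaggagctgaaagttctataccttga
Upstream of Trim5, 2.57 kb from its TSS, lost, chr7:104291312-104291611: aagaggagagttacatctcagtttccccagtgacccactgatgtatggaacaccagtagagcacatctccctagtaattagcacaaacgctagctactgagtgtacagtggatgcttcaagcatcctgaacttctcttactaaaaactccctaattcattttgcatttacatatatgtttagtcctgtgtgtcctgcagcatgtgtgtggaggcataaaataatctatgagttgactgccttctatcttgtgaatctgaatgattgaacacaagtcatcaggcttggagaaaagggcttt
Between genes, 11.1 kb from the Mks1 TSS, gained, chr11:87841240-87841539: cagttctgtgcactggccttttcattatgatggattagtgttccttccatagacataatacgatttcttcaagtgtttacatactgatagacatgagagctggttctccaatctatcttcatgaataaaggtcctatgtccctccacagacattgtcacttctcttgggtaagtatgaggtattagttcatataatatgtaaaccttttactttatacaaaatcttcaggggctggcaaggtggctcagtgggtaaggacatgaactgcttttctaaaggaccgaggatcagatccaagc
Intron of Aff3, gained, chr1:38268324-38268623: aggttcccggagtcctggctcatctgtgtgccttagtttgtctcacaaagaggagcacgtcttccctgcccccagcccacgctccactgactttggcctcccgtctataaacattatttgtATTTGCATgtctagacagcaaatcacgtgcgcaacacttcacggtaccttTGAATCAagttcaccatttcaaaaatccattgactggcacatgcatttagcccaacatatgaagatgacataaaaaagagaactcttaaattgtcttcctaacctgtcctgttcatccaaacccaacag
Between genes, 33.8 kb from the Akap1 TSS, gained, chr11:88816669-88816968: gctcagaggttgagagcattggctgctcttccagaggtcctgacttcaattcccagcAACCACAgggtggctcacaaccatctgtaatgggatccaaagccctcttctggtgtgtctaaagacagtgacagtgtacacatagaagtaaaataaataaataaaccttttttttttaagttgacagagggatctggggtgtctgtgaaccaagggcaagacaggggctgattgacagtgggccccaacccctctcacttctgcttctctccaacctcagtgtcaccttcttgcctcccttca
The capitals mark a ZFX match (AGGCCT) in the Mroh2a peak, an octamer match (ATGCAAAT, the site of OCT factors, here on the minus strand) and an AP-1 match (TGANTCA) in the Aff3 peak, and a RUNX match (TGTGGTT, on the minus strand) in the peak near Akap1. The other 3 sequences held no match.

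To ask how Crebbp haploinsufficiency alone changes accessibility, all peaks were tested with edgeR's quasi-likelihood test on the raw counts of the 17 GC B cell libraries, and differentially accessible peaks (DAPs) were those with a Benjamini-Hochberg adjusted p under 0.01. C mice had 105 DAPs, 0.16% of all peaks tested. Of these, 66 lost accessibility (0.101%) and 39 gained it (0.0596%). Since this test chose the DAPs, the sizes of their changes are a description. The median DAP was 0.97 lower on the log2 scale among lost and 1.37 higher among gained peaks, and 29 lost and 27 gained peaks differed more than 2-fold. Lost peaks started from a median of 14 CPM in WT and ended at 7.03 CPM in C, whereas gained peaks started from 2.19 and ended at 7.05 CPM. At all 105 DAPs every C mouse lay on one side of every WT mouse, which was the case for 5.66% of all peaks, so that their direction was necessarily the same in mice with and without Y signal.

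**Figure D1:**
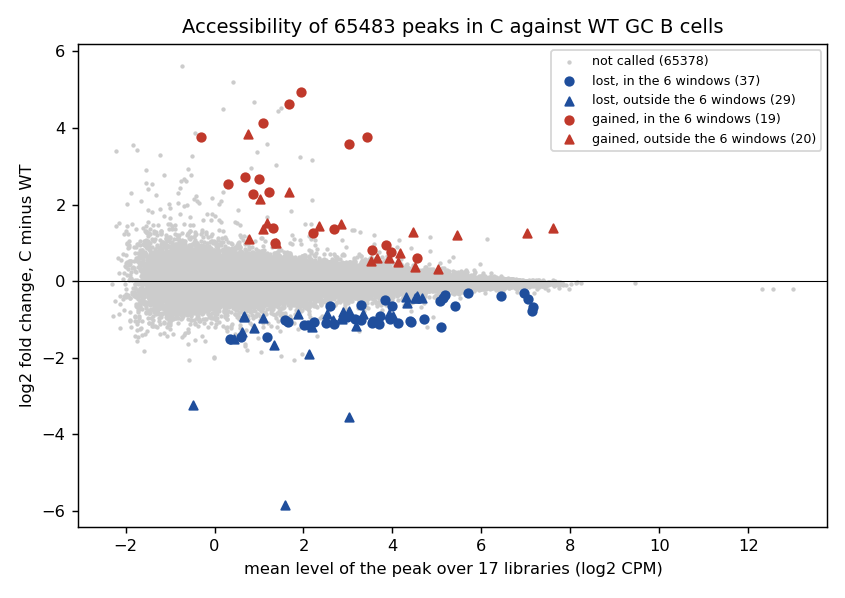
Log2 fold change of C minus WT against the mean level of each of 65483 peaks (log2 CPM over 17 libraries). Blue and red points are the 66 lost and 39 gained DAPs (edgeR adjusted p under 0.01), circles in and triangles outside the 6 chromosome windows that hold 5 or more DAPs. Uncalled peaks are grey.

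The count of DAPs depended on the libraries and on how the spread was estimated. Leaving out WT replicate 1, 2, 3 or 4 left 51, 67, 53 or 74 DAPs, and leaving out C replicate 1, 2, 3 or 4 left 62, 53, 65 or 53. DESeq2 called 180 peaks, of which 98 were among the 105, and a fit of only the 8 C and WT libraries called 219, of which 98 were among the 105.

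The location of DAPs relative to genes was compared with that of all peaks. Within 5 kb of a TSS lay 31.8% of lost (95% exact Clopper-Pearson interval 20.9 to 44.4%) and 38.5% of gained peaks (23.4 to 55.4%), against 40.0% of all peaks. Introns held 36.4% of lost and 30.8% of gained peaks (30.5% of all peaks), and intergenic sequence held 22.7% and 23.1% (21.7% of all peaks). The 95% exact intervals of lost and gained peaks included the share of all peaks in each of these classes. These intervals take each DAP as independent, while many DAPs were close neighbours, so they are likely too narrow. The median distance to a TSS was 10.2 kb for lost, 11.2 kb for gained and 7.68 kb for all peaks. GC content was alike, with medians of 47.8%, 47.6% and 48.2%, while DAPs were longer than other peaks (a median of 1370.5 and 1155 bp against 910 bp).

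At a looser limit, an unadjusted p under 0.05, 4.26% of peaks were lower and 4.64% higher in C. Intergenic peaks were the single location with more lower (4.83%) than higher (3.69%) peaks, and intronic peaks had 4.04% lower and 4.89% higher. The direction moved with the level of the peak: in the 25% of peaks with the highest level 6.18% were lower and 2.49% higher with a median log2 fold change of −0.03, while in the 25% with the lowest level 2.97% were lower and 4.37% higher with a median of 0.04. Scaling each library by loess against peak level kept 94 of the 105 DAPs.

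Most DAPs lay in a few parts of the genome. Chromosomes 1, 7 and 11 held 73 of the 105 DAPs (69.5%) but 20.4% of all peaks, and the other 32 were spread over 11 chromosomes, with none on chromosomes 3, 4, 10, 14, 15, 17 and 18. When the genome was divided into windows of 5 Mb, 6 windows had 5 or more DAPs, and together these windows held 37 lost and 19 gained DAPs among 1377 peaks (4.07%), against 29 lost and 20 gained among the 64106 peaks elsewhere (0.0764%). The windows ran from 85 to 90 and 130 to 135 Mb of chromosome 1, from 100 to 105 Mb of chromosome 7, and from 30 to 35, 40 to 45 and 85 to 90 Mb of chromosome 11. The richest, at 30 to 35 Mb of chromosome 11, had 11 lost and 6 gained DAPs among 190 peaks. Uncalled peaks of that window had a median log2 fold change of 0.00, and those of the window at 85 to 90 Mb of chromosome 1 a median of −0.08. The windows were picked by their DAPs, and these shares are a description. When the peaks of the 6 windows were left out and the rest tested again, 23 DAPs passed (14 lost and 9 gained), all of them among the 105. Part of that fall follows from the choice of windows, since taking out low p values raises the adjusted p of the other peaks.

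Some DAPs of 1 direction lay close together. In 9 stretches, defined by this rule, 3 or more DAPs of 1 direction lay less than 100 kb from each other, and these held 41 DAPs (39.0%). The uncalled peaks inside the stretches also had the sign of the called ones. In 4 of the 6 windows lost and gained DAPs lay together. The labels give no litter or breeding pair for any mouse.

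**Figure D2:**
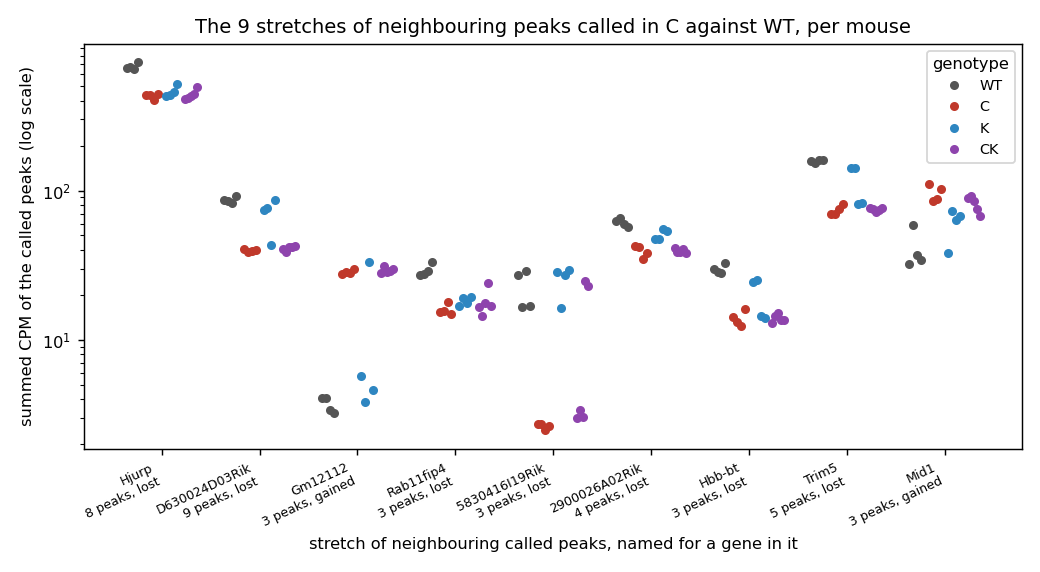
Summed CPM (log scale) of the called peaks in each of the 9 stretches, 1 point per mouse for WT (grey), C (red), K (blue) and CK (purple). In the D630024D03Rik stretch 3 K mice lie near the WT and 1 near the C level, and in the 5830416I19Rik stretch 3 CK mice lie near the C level and 2 near the WT level.

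The most accessible stretch lay around Hjurp, which encodes the chaperone that loads the centromeric histone CENP-A, and Trpm8, a cold-sensing ion channel (chr1:88235349-88290561). All 8 peaks over 55.2 kb were lost. Together they held 664, 673, 653 and 722 CPM in WT mice and 433, 436, 405 and 443 CPM in C mice, without overlap. The intronic Mroh2a peak shown as the first sequence above fell from 189, 195, 185 and 201 CPM to 121, 121, 115 and 126 CPM (log2 fold change −0.67 ± 0.06 SE, edgeR adjusted p = 7.9e-07). The promoter peak of Hjurp, at 169, 170, 166 and 173 CPM in WT, was at 122, 125, 117 and 124 CPM in C (−0.48 ± 0.04, edgeR adjusted p = 7.9e-07). The K mice (427 to 515 CPM over the 8 peaks) and CK mice (412 to 498 CPM) also lay below every WT mouse, so that the WT mice stood apart from the 3 mutant genotypes here. The other DAP of this window, in an intron of Cab39, was at 44.2 CPM in WT and 34.3 CPM in C on average.

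On chromosome 7, Trim5 and Trim12a lost accessibility in C; both belong to the TRIM family, whose primate TRIM5 blocks retroviruses. The 5 DAPs from the Trim5 to the Trim12a promoter (chr7:104287546-104316125) summed to 157, 154, 160 and 160 CPM in WT and to 69.7, 69.5, 74.9 and 81.0 CPM in C. The peak 2.57 kb from the Trim5 TSS, the third sequence above, was at 56.9, 51.0, 51.7 and 58.8 CPM in WT and 22.1, 21.9, 23.4 and 28.1 CPM in C (log2 fold change −1.20 ± 0.14 SE, edgeR adjusted p = 3.5e-05). Of the K mice, 2 held 142 and 143 CPM over the stretch and 2 held 81.3 and 82.4 CPM, and the 5 CK mice held 71.4 to 76.8 CPM. The K mice thus fell at both levels, and the CK mice at that of C.

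In the same window, the promoters of the adult beta globin gene Hbb-bt and of the embryonic beta-like globin gene Hbb-bh1 were lost as well. The Hbb-bt promoter averaged 20.3 CPM in WT and 9.34 CPM in C (log2 fold change −1.12), and Hbb-bh1 averaged 4.55 and 2.27 CPM (−1.01). With a peak near Olfr630, these summed to 29.6, 28.5, 28.1 and 32.5 CPM in WT and 14.2, 13.1, 12.4 and 16 CPM in C. Of the K mice, 2 were at 24.3 and 25.2 CPM and 2 at 14.4 and 13.9 CPM, the same split of mice as at Trim5. Of 9 erythroid markers 8 had no peak over their TSS, Gata1, Klf1 and Alas2 among them, and the other, Tal1, was not lower in C (7.34 ± 0.942 CPM in WT and 8.34 ± 0.576 CPM in C, SD, n = 4 each). These markers do not show which cells the globin signal came from, and its cause was not tested.

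The long stretch on chromosome 11 ran along D630024D03Rik, a gene whose nearest protein-coding neighbour at most of these peaks is Cpeb4, which encodes an RNA-binding protein of mRNA polyadenylation (chr11:31732414-31826048). It had 9 lost DAPs among 11 peaks, and the 9 summed to 86.5, 85.0, 82.8 and 91.2 CPM in WT and 40.8, 38.6, 39.6 and 40.1 CPM in C. Every C mouse lay below every WT mouse. The peak shown as the second sequence was at 29.9, 30.4, 28.8 and 32.7 CPM in WT and 13.9, 13.6, 15.5 and 14.5 CPM in C (log2 fold change −1.08 ± 0.12 SE, edgeR adjusted p = 2.6e-05). K mice held 74.1, 76.5, 43.3 and 86.9 CPM over the stretch, and CK mice 39.0 to 42.4 CPM, so that K replicate 3 alone among the K mice was at the C level.

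The same mouse stood out at gained peaks nearby. A peak inside Il9r, the gene for the receptor of the cytokine IL-9, was at 0.372, 0.313, 0.141 and 0.111 CPM in WT, which is 2 to 7 fragments, and at 5.29, 4.47, 7.23 and 6.53 CPM in C (log2 fold change 4.62 ± 0.53 SE, edgeR adjusted p = 4.6e-05). It lies 9.35 kb from the Il9r TSS and 4.79 kb from that of Gm12109. K replicate 3 was at 3.72 CPM and the other K mice at 0.323 to 0.566 CPM, while CK mice were at 3.14 to 6.01 CPM. The 3 gained peaks between Smim23 and Gm12112 (chr11:32810033-32912421) summed to 4.10, 4.07, 3.37 and 3.21 CPM in WT and 27.5, 28.6, 28.2 and 29.8 CPM in C. K replicate 3 was at 33.4 CPM there, against 3.85 to 5.68 CPM in the other K mice.

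Further peaks of chromosome 11 repeated this. In an exon of Ppp4r3b, which encodes a regulatory subunit of protein phosphatase 4, a peak was at 0.104 to 0.281 CPM in WT and 2.27 to 3.49 CPM in C (log2 fold change 3.83 ± 0.53 SE, edgeR adjusted p = 0.00045), with K replicate 3 at 2.51 CPM and the other K mice at 0.159 to 0.396 CPM. An intronic peak of Sptbn1, a beta spectrin of the membrane skeleton, was at 18, 16.6, 18.6 and 17.8 CPM in WT and 27.9, 28.5, 24.2 and 27.0 CPM in C (0.60 ± 0.09, edgeR adjusted p = 0.00067). An intronic peak of Atp10b, a phospholipid flippase, fell from 13.1, 14.8, 13.6 and 15.7 CPM to 6.28, 6.81, 7.78 and 7.17 CPM (−1.03 ± 0.13, edgeR adjusted p = 0.00018), and a peak near Rnf145, which encodes a ubiquitin ligase, fell from 20.8, 19.4, 19.4 and 20.8 CPM to 10.9, 11.9, 14.2 and 14 CPM (−0.66 ± 0.10, edgeR adjusted p = 0.0012).

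In the window at 85 to 90 Mb of chromosome 11, 8 of 11 DAPs were gained. The fourth sequence above, 11.1 kb from Mks1, a gene of the primary cilium, rose from 1.12, 0.836, 1.41 and 1.16 CPM to 11.9, 13.2, 14.7 and 14.7 CPM (log2 fold change 3.57 ± 0.38 SE, edgeR adjusted p = 1.6e-05). All K mice (8.38 to 10.8 CPM) and 4 of 5 CK mice (8.02 to 10.8 CPM) were high as well, while CK replicate 4 was at 0.897 CPM, the WT level. The peak 33.8 kb from Akap1, which anchors protein kinase A at mitochondria, was at 2.71, 1.93, 3.66 and 2.88 CPM in WT and 6.51, 7.40, 7.68 and 7.43 CPM in C (1.37 ± 0.17, edgeR adjusted p = 0.00011). Msi2, which encodes an RNA-binding protein of haematopoietic stem cells, had 6 DAPs over its body in both directions. Its most accessible DAP fell from 107 to 81.1 CPM, and its weakest rose from 0.30 to 1.77 CPM. The promoter of Mir142b, the locus of the blood cell miRNA miR-142, was the most accessible lost peak of this window, at 145 CPM in WT and 117 CPM in C (−0.32).

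The window at 130 to 135 Mb of chromosome 1 held single peaks of unrelated genes. The promoter of Cntn2, a neuronal adhesion molecule, rose from 8.67, 7.99, 8.48 and 7.31 CPM to 15.2, 15, 14.1 and 13.2 CPM (log2 fold change 0.82 ± 0.12 SE, edgeR adjusted p = 0.00081). An intronic peak of Syt2, a calcium sensor of vesicle release, fell from 19.9 to 22.8 CPM (lowest and highest mouse) to 9.96, 9.83, 11.4 and 10.5 CPM (−0.99 ± 0.15, edgeR adjusted p = 0.0012). At Syt2 CK replicates 1, 2 and 3 were at 8.99 to 11.7 CPM and CK replicates 4 and 5 at 18 and 16.8 CPM, with the K mice at 16.2 to 20.4 CPM. Peaks in Rab7b (10.3 and 5.38 CPM) and at the promoter of Ube2t (56.0 and 45.2 CPM), whose product acts in DNA crosslink repair, were lost, and a peak in Ctse, encoding cathepsin E, was gained (12.6 and 21.6 CPM in WT and C).

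**Figure D3:**
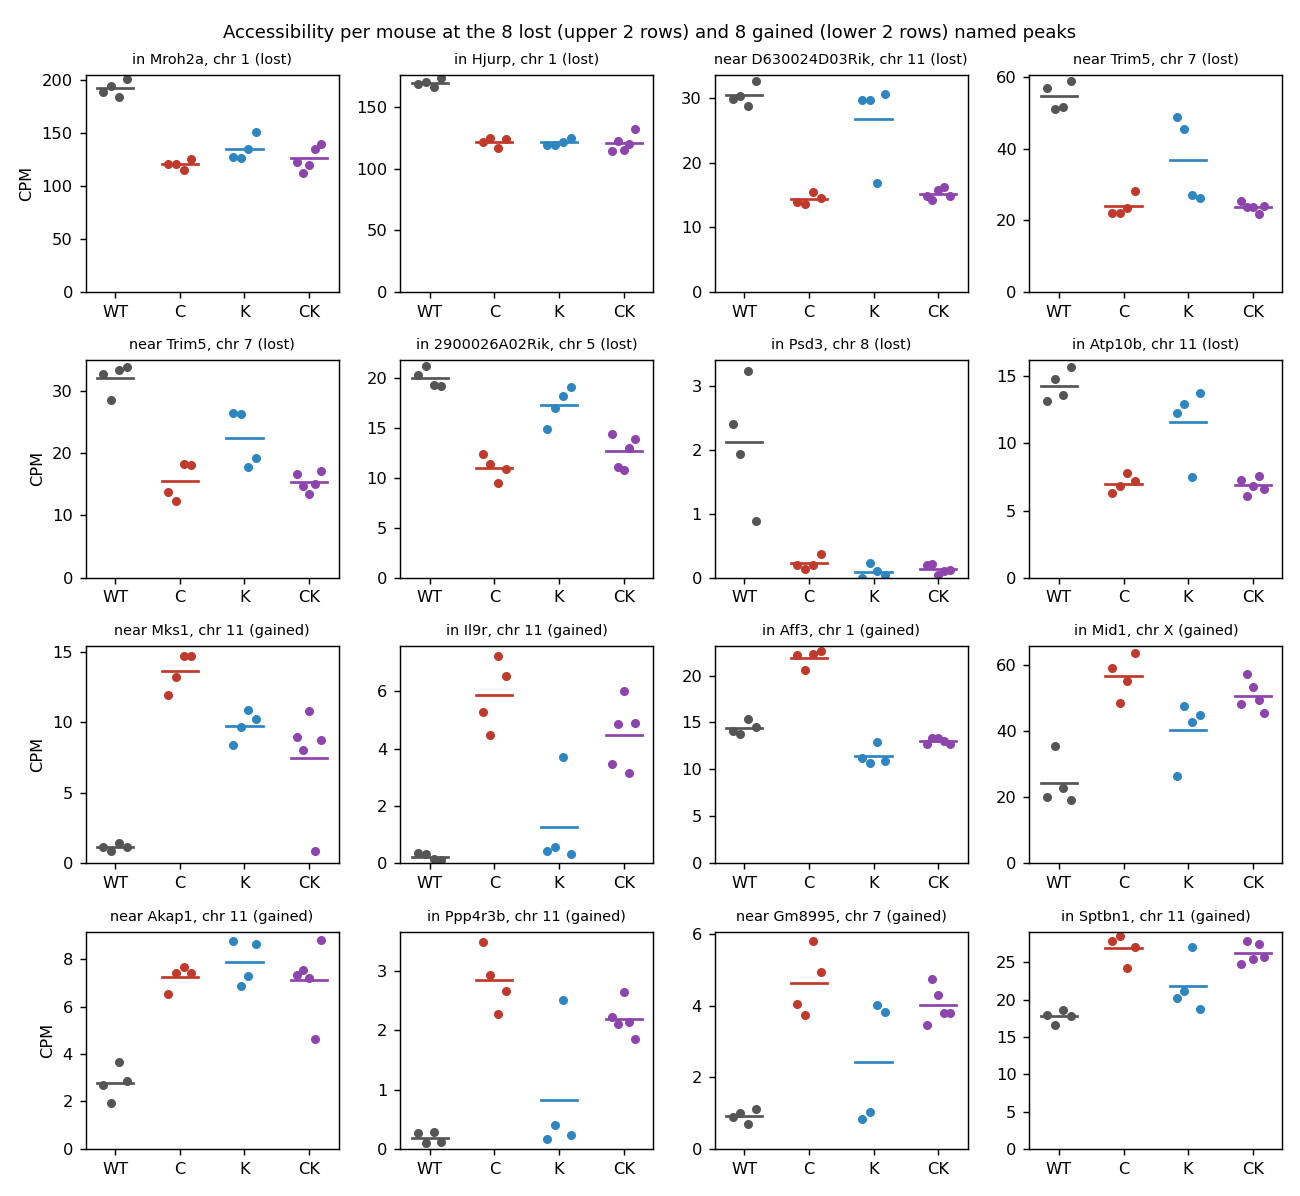
CPM per mouse (points) and group mean (line) at the 8 lost and 8 gained DAPs with the lowest p, at most 2 per 5 Mb window, in WT, C, K and CK. C and WT mice do not overlap in any panel, which the rule for choosing these peaks required and which held at all 105 DAPs. At the D630024D03Rik, Atp10b, Il9r and Ppp4r3b peaks 1 K mouse lies near the C mice and the other 3 near the WT mice.

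Outside the 6 windows 49 DAPs remained, some of them again in runs. Of these, 23 passed when tested without the peaks of the windows. On chromosome 5, 3 lost peaks at 5830416I19Rik (chr5:64029339-64045597) summed to 27.0, 16.7, 29.1 and 16.9 CPM in WT and to 2.74, 2.71, 2.48 and 2.65 CPM in C. The CK mice split into 3 at 3.00 to 3.39 CPM and 2 at 23 and 24.8 CPM, and the K mice lay between 16.4 and 29.1 CPM, overlapping WT. At the middle peak the C libraries held 0 to 3 fragments, so its fitted log2 fold change of −5.85, the lowest of all DAPs, depends on the prior count and is no measure of size. Also on chromosome 5, the 4 DAPs from 2900026A02Rik to the Tmem211 promoter fell from 62.7, 65.1, 59.8 and 57 CPM to 42.4, 41.6, 34.6 and 38.2 CPM. The strongest of them was at 20.3, 21.1, 19.2 and 19.2 CPM in WT and 12.4, 11.3, 9.45 and 10.8 CPM in C (log2 fold change −0.86 ± 0.10 SE, edgeR adjusted p = 5.1e-05).

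On chromosome 11, 3 lost peaks in and near Rab11fip4, which encodes a protein of endosome recycling (chr11:79658259-79757390), summed to 27.4, 27.8, 28.8 and 33.1 CPM in WT and 15.3, 15.7, 17.8 and 14.8 CPM in C, with the K mice (16.9 to 19.3 CPM) and CK mice (14.4 to 24.1 CPM) below every WT mouse.

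At Mid1 on chromosome X, which encodes a ubiquitin ligase and in C57BL/6 mice spans the boundary of the pseudoautosomal region, 3 DAPs summed to 32.4, 58.4, 36.9 and 34.1 CPM in WT and 110, 85.1, 87.5 and 103 CPM in C. The peak over its promoter was at 20.1, 35.6, 22.9 and 19.1 CPM in WT and 59.2, 48.5, 55.2 and 63.7 CPM in C (log2 fold change 1.21 ± 0.15 SE, edgeR adjusted p = 0.00011). Another 2 gained DAPs lay at the far end of chromosome Y, near Mid1-ps1 and in Gm47283, and were open in mice with and without signal elsewhere on Y (79.9 and 111 CPM on average in WT, 189 and 291 CPM in C). Near-identical copies of this sequence on X and Y could share fragments, so the position of these 5 peaks is uncertain.

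Among single DAPs was an intronic peak of Aff3, which encodes a nuclear protein expressed in lymphoid cells. This peak, the fifth sequence above, was at 14.1, 13.7, 15.3 and 14.6 CPM in WT and 22.2, 20.6, 22.2 and 22.6 CPM in C (log2 fold change 0.60 ± 0.07 SE, edgeR adjusted p = 9.4e-05). K mice (10.7 to 12.9 CPM) and CK mice (12.7 to 13.4 CPM) lay below every C mouse. A second intronic Aff3 peak rose from 2.19 to 4.4 CPM. An intronic peak of Psd3, encoding an exchange factor of the GTPase ARF6, was at 2.39, 1.93, 3.23 and 0.886 CPM in WT and 0.189, 0.135, 0.202 and 0.372 CPM in C (−3.24 ± 0.41, edgeR adjusted p = 0.00011), and was at or below 0.227 CPM in all K and CK mice. An intergenic peak 39.1 kb from Gm8995 rose from 0.703 to 1.11 CPM in WT to 3.74 to 5.81 CPM in C (2.32 ± 0.33, edgeR adjusted p = 0.00067), with 2 K mice at each level. The 2 DAPs nearest Olfr693, an olfactory receptor gene, were lost, at 25.2 kb (log2 fold change −1.01) and 32.9 kb (−1.20) from its TSS.

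An intronic peak of Foxp1, a transcription factor of B cell development, fell from 2.87, 2.56, 2.02 and 2.49 CPM to 1.13, 1.53, 1.11 and 1.27 CPM (log2 fold change −0.96 ± 0.18 SE, edgeR adjusted p = 0.00896). It was at 1.83 to 2.55 CPM in K and 1.79 to 2.71 CPM in CK mice, overlapping WT. The Samsn1 peak fell from 29.2 to 21.4 CPM (−0.45), a peak in Timd4, encoding a phosphatidylserine receptor, rose from 3.58 to 10.1 CPM (log2 fold change 1.5), and the promoter of Bcat1, encoding an aminotransferase of branched-chain amino acids, rose from 0.853 to 1.84 CPM (1.10). Promoters of Tmtc1 (8.48 to 12.9 CPM), Coch (8.39 to 12 CPM), Thyn1 (25.7 to 32.1 CPM) and Tll2 (17.6 to 22.7 CPM) rose, and those of Mettl27 (22.7 to 17 CPM) and Tmem100 (14.3 to 7.85 CPM) fell.

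Counts were also summed per gene, over all peaks within 100 kb whose nearest protein-coding TSS was that gene's. Of 15615 genes, 15 fell (0.0961%) and 11 rose (0.0704%) in C. Hjurp had the lowest p (6 peaks, 688 ± 32.4 CPM in WT and 443 ± 12.6 CPM in C, SD, n = 4 each, log2 fold change −0.63, edgeR adjusted p = 1.1e-05), followed by 2900026A02Rik (−0.63), Trim5 (−1.12), Cpeb4 (−0.53) and Mks1 (0.82). Mroh2a (−0.98), Trim12a (−0.98), Olfr372 (−1.15), Rab7b (−0.58) and Smim23 (2.09) were also called, as were Akap1 (0.33) and Mid1 (0.91). Rab7b rested on its distal peaks: from peaks within 10 kb alone its log2 fold change was 0.29 and it was not called. Another 6 genes were called although none of their peaks was a DAP. Among them Gata2 (0.37), Osr2 (0.32), Lhx9 (0.27) and Cpeb3 (0.26) rose and Wdfy1 (−0.22) fell; GATA2 is a transcription factor of blood stem cells, and OSR2 and LHX9 are transcription factors of organ development. At Gata2 the sum was 14.6 ± 1.28 CPM in WT and 18.7 ± 0.596 CPM in C (SD, n = 4 each). Without the peaks of the 6 windows 3 genes were called, and with 1 library left out 7 to 14 were.

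Genes of GC B cell pathways were followed through 14 lists with 261 genes tested. One listed gene was called, Hjurp, in the list of dark zone and cell cycle genes. At an unadjusted p under 0.05, 4.51% of all genes were lower and 6.55% higher. Genes of the B and T cell synapse and of costimulation, which GC B cells use to gain help from T cells, had 3 of 20 lower and 1 higher, with a median log2 fold change of −0.04. The lowest p among them were those of Tnfrsf14, encoding the receptor HVEM, at 134 ± 4.81 CPM in WT and 122 ± 5.26 CPM in C (SD, n = 4 each, −0.14 ± 0.05 SE, edgeR adjusted p = 0.22), and of Sh2d1b1, encoding a SAP family adaptor (−0.29 ± 0.10, edgeR adjusted p = 0.26). Among peaks linked to this list, 15 of 134 were lower and 3 higher at an unadjusted p under 0.05 (2474 lower and 2766 higher of 59758 for the peaks of all genes), and 0 were DAPs in either direction in edgeR.

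MHC class II genes, which present antigen to T cells, had 2 of 14 lower and 0 higher, with a median of −0.03. Of the peaks linked to them, 6 of 64 were lower and 1 higher at that limit (2474 lower and 2766 higher of 59758 for the peaks of all genes), and 0 were DAPs in edgeR. H2-Eb1 was at 325 ± 3.74 CPM in WT and 308 ± 10.2 CPM in C (log2 fold change −0.08 ± 0.04 SE, edgeR adjusted p = 0.41), and H2-DMb2 at 205 and 194 CPM (−0.08). No MHC class I gene passed an unadjusted p under 0.05 in either direction (0 of 14 by edgeR, median 0.01), among them Psmb8 (0.04) and H2-D1 (−0.03). Among genes of B cell receptor signalling 1 of 22 was lower, Cd72, encoding an inhibitory coreceptor (−0.10, edgeR adjusted p = 0.36), and Cd22 was at −0.10. No gene of the NF-kB list (0 of 21 by edgeR) passed this limit. Of the JAK-STAT and cytokine receptor list Il9r was higher (0.45 ± 0.13, edgeR adjusted p = 0.12), at 22.2 ± 2.12 CPM in WT and 30.5 ± 6.13 CPM in C, and the DAP inside it was the single DAP of this list.

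Among GC transcription factors 1 of 23 was higher, Foxo1, the factor of the dark zone (236 ± 2.90 CPM in WT and 253 ± 6.40 CPM in C, log2 fold change 0.10, edgeR adjusted p = 0.18), and Pou2f1 was at −0.09. The memory B cell list, with 1 of 17 lower and 2 higher, had the highest median (0.05), and Cd80 in it was at 0.12. Of the plasma cell list 1 of 16 was lower, Creb3l2 (−0.13), and 2 were higher, with Sdc1, encoding the plasma cell marker CD138, at 0.18. Confinement and migration genes had 1 of 15 lower, Arhgef1 (−0.11), whose product relays the signals that hold B cells in the GC. Apoptosis genes had 1 of 18 lower, Cflar (−0.08), and 1 higher. Among chromatin coactivators and opposing repressors, CREBBP's own group, 1 of 22 was lower, Hdac1 (−0.09), with Arid1a at −0.07, and among CREB and AP-1 factors Atf1 was lower (−0.09) and Crtc3 higher (0.08), with 1 of 19 lower and 2 higher. In the dark zone and cell cycle list 1 of 20 was lower, Hjurp, and E2f1 was at −0.06. Linked peaks at an unadjusted p under 0.05 (edgeR) went both ways, given as lower and higher. GC transcription factors had 15 and 23 of 404, B cell receptor 7 and 11 of 213, JAK-STAT 5 and 6 of 168. Memory had 17 and 14 of 270, plasma cell 6 and 6 of 126, MHC class I 0 and 0 of 35. Dark zone had 9 and 4 of 147, apoptosis 9 and 5 of 119, confinement 7 and 5 of 130. Coactivators had 7 and 4 of 182, NF-kB 6 and 4 of 181, CREB and AP-1 factors 5 and 4 of 108. The listed genes are highly accessible: 197 of the 261 belonged to the top 25% of genes by level, in which the median of all genes was −0.02, and 12 of the 14 list medians lay between −0.04 and 0.00.

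**Figure D4:**
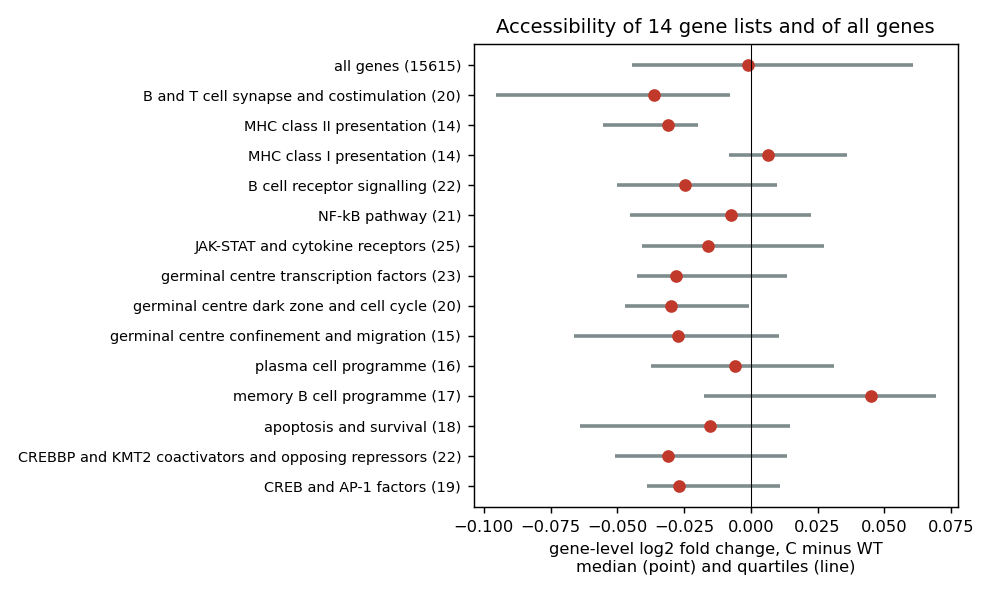
Median (point) and quartiles (line) of gene-level log2 fold changes, C minus WT, for all 15615 genes and for 14 gene lists, with the number of genes tested in brackets. All medians lie between −0.04 and 0.05, and that of all genes at 0.00.

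The 12 short motifs were counted in the 300 bases at the centre of each peak, on both strands. The E-box CAGGTG of E2A was in 31.8% of lost and 20.5% of gained DAPs, and in 24.1% of all peaks. GAGGAAGT, of the ETS factors SPI1 and SPIB, was in 3.03% of lost and in 0 of 39 gained DAPs (5.84% of all peaks), TTCNNNGAA of STAT factors in 7.58% and 12.8% (8.22%), TGANTCA of AP-1 in 6.06% and 12.8% (8.92%), and TGTGGTT of RUNX in 6.06% and 12.8% (8.46%). The octamer ATGCAAAT was in 4.55% of lost and 10.3% of gained DAPs (4.17%), AGGCCT of ZFX in 12.1% and 10.3% (10.0%), GGGCGGG of KLF and SP factors in 4.55% and 7.69% (10.8%), and AGGGGGC, part of the CTCF site, in 9.09% of lost and in 0 of 39 gained DAPs (8.51%). The CREB site TGACGTCA (0.623% of all peaks) and the YY1 site AAGATGGCG (0.667%) were in none of the 105 DAPs in this window, and GGGANTTCC of NF-kB in 1 of them (1.45% of all peaks). With so few DAPs these shares rest on at most 21 peaks each, and they depended on the window. Over whole peaks, which are longer for DAPs, GAGGAAGT was in 18.2% of lost and 7.69% of gained DAPs (14.2% of all peaks), TGTGGTT in 34.8% and 30.8% (24.3%) and TGANTCA in 31.8% and 43.6% (26.2%), so that for lost DAPs the order against all peaks turned at these motifs, among others. Across all peaks outside promoters, those with an octamer had a median log2 fold change of 0.02 and those without of 0.01. Matches are of letters alone and are not evidence that a factor bound.

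The same loss of 1 Crebbp allele was present in other mice, on the Kmt2d fl/+ background: CK against K shares no mouse with C against WT. There, 6 peaks were DAPs (0.00916% of all peaks), and 2 of these were also DAPs in C against WT, both in the D630024D03Rik stretch. Of the 105 C DAPs, 88 (83.8%) had the same sign in CK against K as in C against WT, and 64 of them at an unadjusted p under 0.05, while 0 of the 105 had the opposite sign at that limit in edgeR. Over all 65483 peaks 59.9% had the same sign, 3756 had the same sign and 1058 the opposite sign at that limit. These are counts of peaks and not of independent regions, since 41 of the 105 lay in the 9 stretches of neighbouring DAPs. Since the 105 peaks were chosen for their change in C against WT, a smaller change in other mice follows from that choice, and the medians are given as a description: the median lost DAP was 0.97 lower in C against WT and 0.42 lower in CK against K on the log2 scale, and the median gained DAP 1.37 and 0.31 higher. Inside the 6 windows 47 of 56 and outside them 41 of 49 DAPs had the same sign. As the per-mouse values above show, K and CK mice fell at either the C or the WT level at several of these peaks, so that a median over mice can mix both levels.

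**Figure D5:**
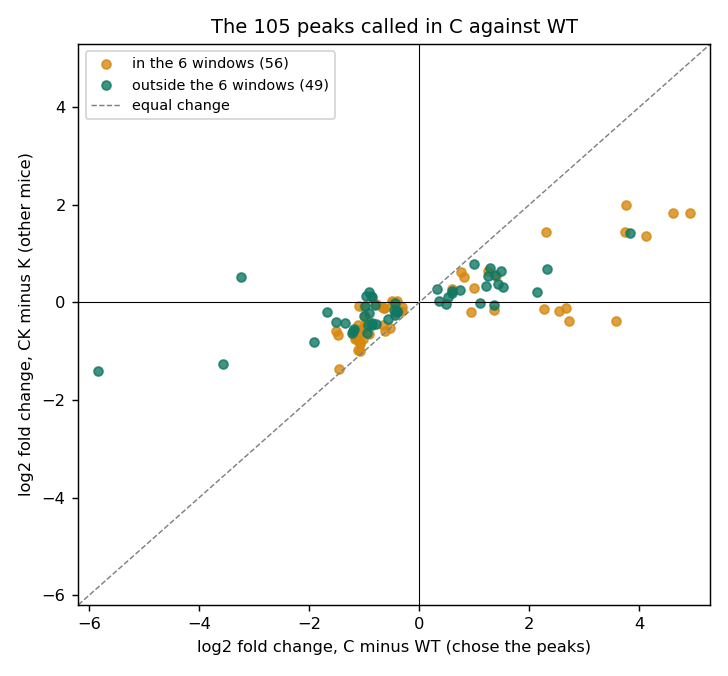
Log2 fold change of CK minus K against that of C minus WT at the 105 C DAPs, inside (orange) and outside (green) the 6 windows. The dashed line marks equal change. Most points lie at the lower left and upper right (88 of 105) and closer to 0 on the CK minus K axis.

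DAPs of chromosome 11 at 85 to 90 Mb were among those with little change on the other background. The peak near Mks1 was 3.57 higher in C against WT and 0.39 lower in CK against K on the log2 scale, and that near Akap1 was 1.37 higher and 0.16 lower. The K mice themselves were already 3.10 and 1.49 higher than WT at these peaks. The Hjurp promoter was 0.48 lower in C against WT and 0.01 lower in CK against K, with K against WT also 0.48 lower. At these peaks K already differed from WT, so that CK against K started from another level than C against WT. A difference in K did not always go with little further change. At the Trim5 peak above, the log2 fold change was −0.57 in K against WT and −0.64 in CK against K. The Foxp1 peak was 0.96 lower in C against WT and 0.12 higher in CK against K. Other peaks moved further in the direction of C against WT. The D630024D03Rik peak was 1.08 and 0.81 lower, the Atp10b peak 1.03 and 0.75 lower, the Il9r peak 4.62 and 1.83 higher, and the promoter of Thyn1 0.32 and 0.28 higher.

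Whether the change of C differed between mice with and without Y signal was tested as an interaction over the 4 C and 4 WT libraries. It was called at 2 of 65478 peaks (0.00305%), neither of them a DAP.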

How the data were processed

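ATAC-seq was performed by the authors on 60000 sorted GC B cells per mouse, reads were aligned to mm10, and fragments were counted over consensus peaks with featureCounts 2.0.1 (minimum overlap 0.2 of a fragment). The deposited table holds raw counts of 65483 peaks in 17 GC B cell libraries, and all of its sample columns were used (0 left out). The 7 centroblast and centrocyte libraries have no column in this table and were not analysed here.

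Counts were tested with edgeR 4.0.16 (R 4.3.3), TMM factors, a summed count of 10 or more, and 1 coefficient per genotype over the 17 libraries, at a Benjamini-Hochberg adjusted p under 0.01. The study's methods also ask for a 1.5-fold change, which was run as an alternative. Peaks were annotated on GRCm38 (promoter, within 5 kb of a TSS) with Python 3.11.15, and the test was checked on simulated data. The peaks named were the 8 lost and 8 gained with the lowest p (at most 2 per 5 Mb window). Only DAPs where C and WT mice do not overlap were eligible for these. Also named were DAPs nearest a listed gene and the 2 with the lowest p in each window of 5 or more DAPs. The genes named were the 8 per direction with the lowest p, the 2 with the lowest p in each list, Crebbp and Kmt2d. Other called peaks and genes named in the text were chosen after their values were seen. Results of some genes that these rules take in are not reported here. The members and lists were chosen with earlier results of these data known. Each library is 1 mouse by its label. Intervals cover counting error only. Alternatives were DESeq2 1.42.0, other scalings and filters, a replicate block, Y signal as a factor, other links of peaks to genes, and fits without X and Y, without the 6 windows and without each library.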

Additional observations from a re-analysis of the deposited data

Results flagged for a closer look

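At the lost Syt2 peak, WT replicate 4 was at 22.8 CPM while the other 3 WT mice lay at 19.9 to 20.01 CPM, a gap of 0.953 of the range of the group, above Dixon's critical value for 4 samples. This was the single such value in 48 groups tested (the 24 named peaks in C and in WT), and chance gives about 1 in 20.

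The change of C against WT differed between mice with and without Y signal at 2 peaks of chromosome 9, by the interaction test of edgeR. At an intergenic peak near Gm36120 (chr9:83656171-83656437) the difference was 4.33 ± 0.48 (log2, SE, edgeR adjusted p = 0.000249): C replicates 1 and 2 were at 4.29 and 4.56 CPM, C replicates 3 and 4 at 0.303 and 0.531 CPM, and WT mice at 0.470 to 1.27 CPM. In an intron of Adamts7, encoding a metalloproteinase (chr9:90181467-90182599), the difference was −0.97 ± 0.13 (log2, SE, edgeR adjusted p = 0.00163), with C mice at 11.5, 13.6, 27.7 and 27.0 CPM and WT mice at 28.9 to 33.9 CPM. CK replicate 5, without Y signal, was at 5.13 CPM at the first peak and the other CK mice at 0.379 to 0.592 CPM. Of these others, CK replicates 1 and 4 had Y signal. At the Adamts7 peak CK replicates 1 and 5 were at 12.7 and 13.2 CPM, and the other CK mice at 22.1 to 28.04 CPM. In C and in WT, replicates 1 and 2 had Y signal and replicates 3 and 4 did not. The interaction test therefore cannot separate Y signal from any other difference between these replicates. The cause was not tested.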

How the results depend on the processing

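The number of called peaks depended on the model more than on the scaling. Against 105 DAPs (66 lost, 39 gained), DESeq2 called 180 (104 and 76) and the fit of only C and WT 219 (141 and 78). An adjusted p under 0.05 called 237 (135 and 102). Leaving out the 6 windows gave 23 (14 and 9), a fall that in part follows from how the windows were picked. Other scalings, filters, Y signal as a factor and leaving out X and Y gave 94 to 144. Leaving out 1 library gave 51 to 74 DAPs (28 to 49 lost, 17 to 28 gained) and 7 to 14 genes. Against 26 called genes there were 58 in the fit of only C and WT, 49 with Y signal as a factor, 92 at an adjusted p under 0.05, 13 with a 1.5-fold change and 3 without the windows. For CK against K, 6 DAPs became 36 with DESeq2, 23 at an adjusted p under 0.05, 3 with a filter of 1 CPM in 4 libraries and 3 without the windows, and the interaction with Y signal was called at 10 peaks at an adjusted p under 0.05. With the replicate block 213 DAPs (133 lost, 80 gained), 56 genes and 26 CK against K peaks were called, and with the block in the fit of only C and WT 510 DAPs (325 and 185) and 160 genes; the 105 DAPs were among both sets. The main fit did not treat the replicate numbers as pairs. Same-numbered C and WT libraries had correlations of deviations of 0.059, 0.0686, 0.066 and 0.155, and those with unlike numbers −0.122 to 0.0861. Of the 4 C libraries, 3 correlated best with their own number. Whether the numbers mark mice handled together was not tested. From peaks within 10 kb Rab7b was 0.29 (edgeR adjusted p = 0.69). No named peak changed direction in 485 comparisons of 24 peaks, and 32 lost their call. Named genes lost a call in 67 of 906 comparisons, and Il9r gained one in 2. Where no cause is evident from the setting itself, the cause was not tested. Peaks with few fragments, such as those of Il9r and 5830416I19Rik, have the least certain fold changes.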
